A study of Sordaria macrospora with 14 samples.

Results

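The genes described here are 116 of the 10014 gene models of Sordaria macrospora in the deposited table, chosen by their measured levels, which were higher in the fruiting bodies of a pair of deletion strains than in those of the wild type. Levels are CPM, reads counted for a gene per 1000000 reads counted in its library, with no further scaling. A gene was taken when the lowest of the 4 libraries of Δasm2 and ΔSMAC_03952 perithecia reached 10 CPM and was at least 2 times the higher of the 2 wild-type perithecia libraries, and when its mean in Δasm2 perithecia was above 0.5 of its mean in Δasm2 mycelium. All 116 passed the filter on low counts used for the tests. The rule used wild-type, Δasm2 and ΔSMAC_03952 perithecia and Δasm2 mycelium, so levels in those groups are a description and carry no test. Wild-type, ΔSMAC_03952 and Δspt3 mycelium entered no part of the rule, and the tests are between these groups. The spread between replicates was estimated from all 14 libraries, which include the 8 of the rule, so the tests are not fully independent of the choice.

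Sordaria macrospora is a self-fertile filamentous ascomycete. It forms flask-shaped fruiting bodies, the perithecia, in which asci and ascospores develop, surrounded by an outer wall of pigmented cells. In baker's yeast, Spt3 is a subunit of SAGA, a coactivator complex that helps bring the TATA-binding protein to promoters. The labels do not say what asm2 or SMAC_03952 encode, and the annotation used here gives no product for any of the 116 genes, so they are named by identifier and no function is given.

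Besides the wild type there were 3 strains, each lacking 1 gene: Δasm2, ΔSMAC_03952 and Δspt3. Sexually competent mycelium was grown in liquid culture and perithecia on solid corn meal medium, both for 6 days at 25 °C; perithecia were fixed in ethanol for 10 min and scraped off. The library protocol speaks of microdissected RNA beside total mycelial RNA, while the samples are labelled as total mycelium or perithecia; they are taken here as labelled. The groups were wild-type mycelium and perithecia, Δasm2 mycelium and perithecia, ΔSMAC_03952 mycelium and perithecia, and Δspt3 mycelium, with 2 independent biological replicates each and 14 libraries in all. No further allele, marker or number of clones is given in the labels, and tissue differs together with culture form and harvest.

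Total counts ranged from 6383079 to 24029990 per library. The Δspt3 libraries stood apart in breadth, with 8358 and 8433 gene models at 1 CPM or more against 8924 to 9193 in the others. SMAC_03952 itself stood at 20.8 and 23.4 CPM in the mycelium and 49.5 and 40.8 CPM in the perithecia of its deletion strain, below the lowest value of any other library, 86.8 CPM. A residue of counts for the deleted gene therefore remained. The gene behind asm2 or spt3 cannot be looked up in the annotation used.

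The median level of the 116 genes differed widely between the groups. It stood at 55.2 and 43.2 CPM in wild-type mycelium replicates 1 and 2 and at 12.7 and 13.3 CPM in wild-type perithecia. In Δasm2 perithecia it stood at 47.2 and 52.6 CPM and in ΔSMAC_03952 perithecia at 73.6 and 99.4 CPM. By this median, Δasm2 perithecia lay near wild-type mycelium and ΔSMAC_03952 perithecia above it. In Δspt3 mycelium the median was 1.65 and 1.89 CPM, below that of every other library. Together the genes took 0.642% and 0.577% of all counts in wild-type perithecia, 2.38% and 2.35% in Δasm2 perithecia and 2.80% and 3.15% in ΔSMAC_03952 perithecia. In bulk samples such as these, fewer cells of a type and less RNA per cell cannot be told apart.

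**Figure D1:**
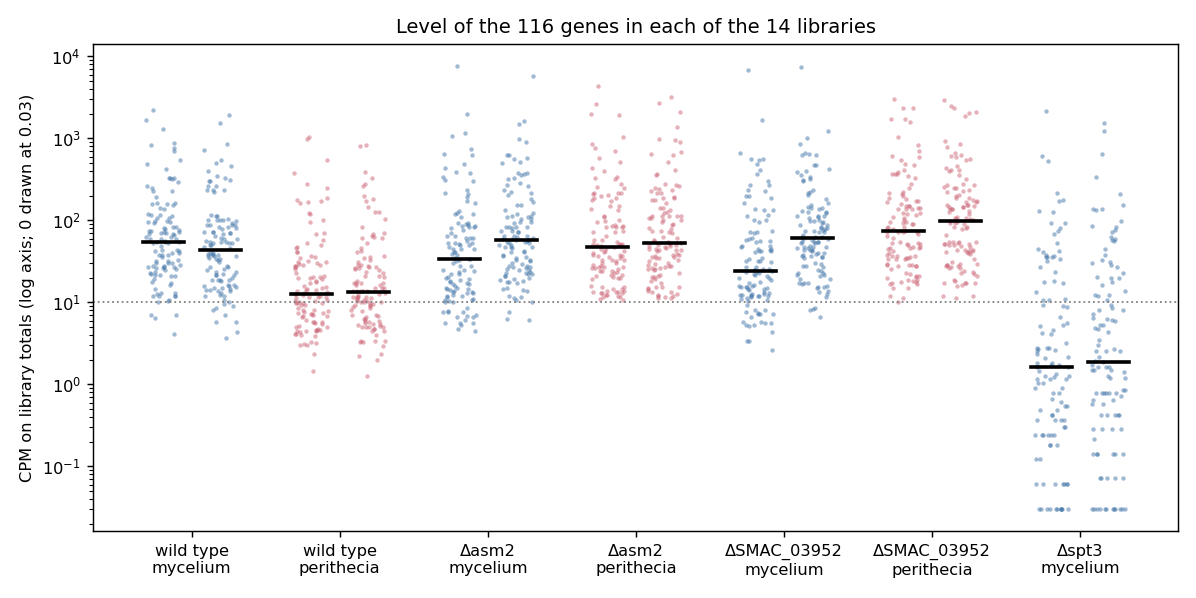
Each point is 1 of the 116 genes in 1 of the 14 libraries (replicates 1 and 2 side by side; blue, mycelium; red, perithecia), in CPM on a log axis with 0 drawn at 0.03; black bars are medians and the dotted line is the 10 CPM of the rule. The medians fall to 12.7 and 13.3 CPM in wild-type perithecia and to 1.65 and 1.89 CPM in Δspt3 mycelium.

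By the values that chose them, the genes stood a median of 3.66 times higher in Δasm2 than in wild-type perithecia (range 2.21 to 16.7) and a median of 5.74 times higher in ΔSMAC_03952 perithecia (range 2.13 to 22.5). The 2 extremes were SMAC_06022 in Δasm2 and SMAC_09026 in ΔSMAC_03952. The size of the difference was not equal in both strains. The ΔSMAC_03952 mean was the higher one for 84 genes, at least 2 times higher for 45, and at least 2 times lower for 7. Replicates of ΔSMAC_03952 and Δasm2 perithecia did not overlap, with ΔSMAC_03952 above, for 74 genes, against 32.7% of all genes tested. They did not overlap in the other direction for 24 genes, against 28.5%.

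The smallest ratios of the lowest mutant to the highest wild-type library inside the rule were 2.006 for SMAC_06075, 2.011 for SMAC_07261 and 2.012 for SMAC_07018. Just outside lay SMAC_01298 at 1.99 and both SMAC_08998 and SMAC_05258 at 1.98. At the limit of 10 CPM, SMAC_06368 (lowest mutant library 10.03 CPM), SMAC_08452 (10.7) and SMAC_05592 (11.0) were inside, and SMAC_07949 (9.87), SMAC_06150 (9.74) and SMAC_08824 (9.24) outside. The members therefore grade into genes with nearly the same values.

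Compared with wild-type mycelium, which the rule did not use, 83 of the 116 genes stood at less than 0.5 of their mycelial mean in wild-type perithecia, 54 of them at less than 0.25. Another 21 lay between 0.5 and 1, and 12 stood at or above the mycelial level. The 2 perithecia libraries lay below both mycelium libraries for 101 genes, against 27.3% of all genes tested, and above them for 7, against 37.4%. Low wild-type perithecia were part of the rule, so nothing is read from these counts. The median ratio of wild-type perithecia to mycelium was 0.268 (quartiles 0.173 and 0.540). In ΔSMAC_03952 perithecia the ratio to wild-type mycelium had a median of 1.63, no gene stood below 0.5, and 37 stood at 2 or more. Its libraries lay above both of wild-type mycelium for 80 genes, against 44.3% of all genes tested, and below them for 3, against 26.3%. In Δasm2 perithecia the median was 1.18, with 13 genes below 0.5 and 32 at 2 or more. Here 53 genes lay above wild-type mycelium without overlap, against 40.6% of all, and 44 below, against 28.8%. Within a strain, ΔSMAC_03952 perithecia lay above ΔSMAC_03952 mycelium for 68 genes, against 45.2% of all, and below it for 9, against 28.3%. For Δasm2 these numbers were 37, against 43.6%, and 15, against 26.4%.

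**Figure D2:**
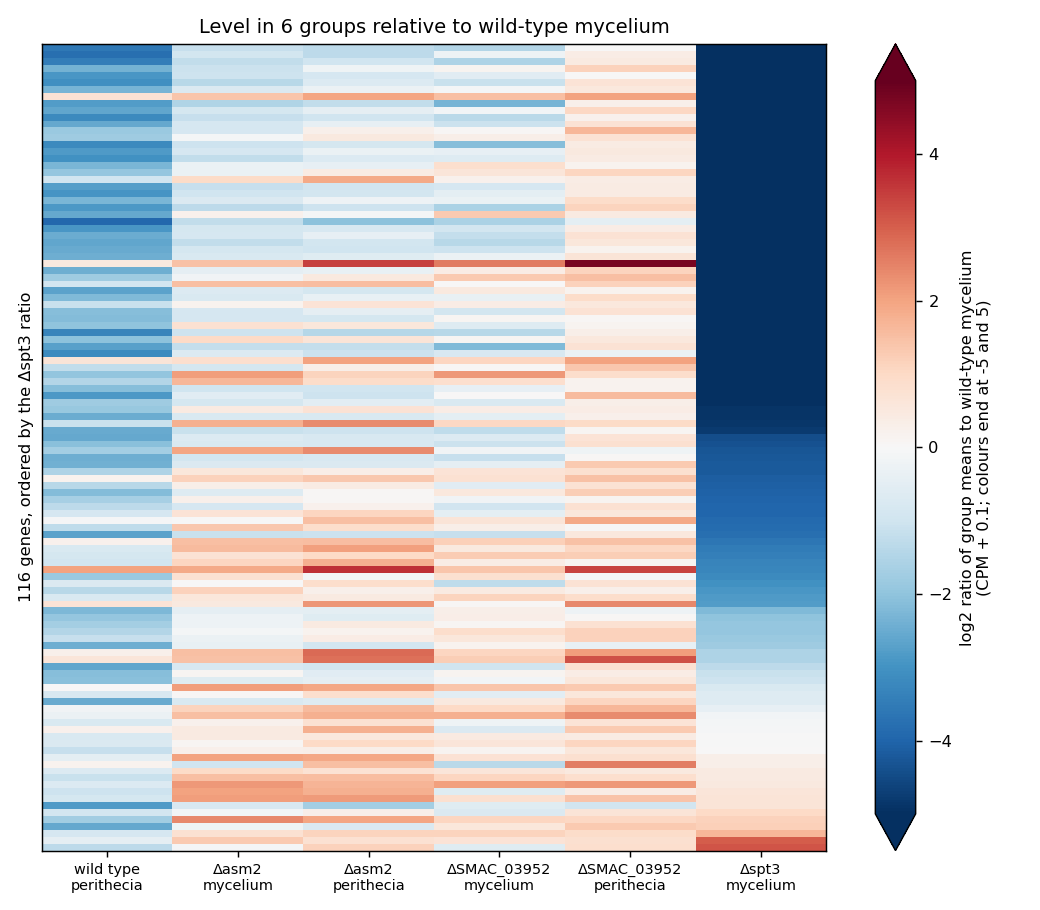
Rows are the 116 genes, ordered by their Δspt3 ratio, and columns 6 groups; colour is the log2 ratio of the group mean to the wild-type mycelium mean (CPM + 0.1), ending at -5 and 5. The first column is mostly blue, with 83 genes under 0.5 of wild-type mycelium, and the Δspt3 column is dark blue for most rows. ΔSMAC_03952 perithecia lie mostly near or above wild-type mycelium. Δasm2 perithecia lie on both sides of it, with 13 genes below 0.5 and 32 at 2 or more.

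SMAC_05495 is an example at a high level, and not all of its traits were common among the 116 genes. It stood at 2240 and 1943 CPM in wild-type mycelium, 171 and 182 CPM in wild-type perithecia, 711 and 992 CPM in Δasm2 perithecia and 1736 and 2472 CPM in ΔSMAC_03952 perithecia. In mycelium of the mutants it stood at 385 and 1482 CPM in Δasm2, 304 and 1224 CPM in ΔSMAC_03952, and 0.0611 and 0.285 CPM in Δspt3. The mutant perithecia lay above both wild-type perithecia libraries, as the rule demanded. ΔSMAC_03952 perithecia overlapped wild-type mycelium, whereas for 80 of the 116 genes they lay above it without overlap. Both Δspt3 libraries lay below 1 CPM. Its ratio of wild-type perithecia to mycelium was 0.0843, against a median of 0.268 for the 116 genes. Of the 116, 42 were below 1 CPM in both Δspt3 libraries.

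SMAC_09183 had a ratio of 5.17 between the lowest mutant and the highest wild-type perithecia library. Its levels were 542 and 398 CPM in wild-type mycelium, 34.6 and 33.2 CPM in wild-type perithecia, 205 and 179 CPM in Δasm2 perithecia and 544 and 673 CPM in ΔSMAC_03952 perithecia. Replicates were wide apart in mycelium of the mutants, at 121 and 374 CPM in Δasm2 and 136 and 654 CPM in ΔSMAC_03952. The wild-type perithecia were low and even, and Δspt3 mycelium held 1 read in each library.

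The gene with the largest ratio, SMAC_06919 at 5.30, differed from SMAC_05495 and SMAC_09183 in its wild-type levels. It stood at 43.9 and 88.6 CPM in wild-type mycelium and 122 and 63.1 CPM in wild-type perithecia, which overlapped. Δasm2 perithecia held 760 and 648 CPM and ΔSMAC_03952 perithecia 1726 and 1883 CPM. Mycelium of both strains was also above wild-type mycelium, at 165 and 205 CPM in Δasm2 and 489 and 305 CPM in ΔSMAC_03952.

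SMAC_06095 had the highest level of the 116 in mutant perithecia, both as CPM, 3237 averaged over 4 libraries, and per length, 3320 CPM per kilobase. Its levels were 1672 and 1532 CPM in wild-type mycelium, 543 and 264 CPM in wild-type perithecia, 4308 and 2669 CPM in Δasm2 perithecia and 3021 and 2950 CPM in ΔSMAC_03952 perithecia. Higher still was the mycelium of these strains, with 7612 and 5851 CPM in Δasm2 and 6903 and 7366 CPM in ΔSMAC_03952. Δspt3 mycelium held 38.2 and 37.4 CPM. No library of the mutants overlapped the wild type of its tissue for this gene.

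Per length, SMAC_07261 and SMAC_01511 followed, at 1409 and 1395 CPM per kilobase. SMAC_01511 stood higher in perithecia than in mycelium in each of the 3 strains with both tissues: it was at 227 and 233 CPM in wild-type mycelium, 1046 and 828 CPM in wild-type perithecia, 2645 and 3170 CPM in Δasm2 perithecia and 2371 and 2375 CPM in ΔSMAC_03952 perithecia. Its mycelial levels were 1066 and 631 CPM in Δasm2 and 559 and 635 CPM in ΔSMAC_03952, below the perithecia of the same strain. SMAC_07261 was nearly even over the wild-type tissues, at 883 and 713 CPM in mycelium and 996 and 807 CPM in perithecia, and stood at 2004 and 2084 CPM in Δasm2 and 2375 and 2032 CPM in ΔSMAC_03952 perithecia. The other abundant members were SMAC_01984, SMAC_02968 and SMAC_07680, with means over the 4 mutant perithecia libraries of 1207, 1133 and 980 CPM.

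**Figure D3:**
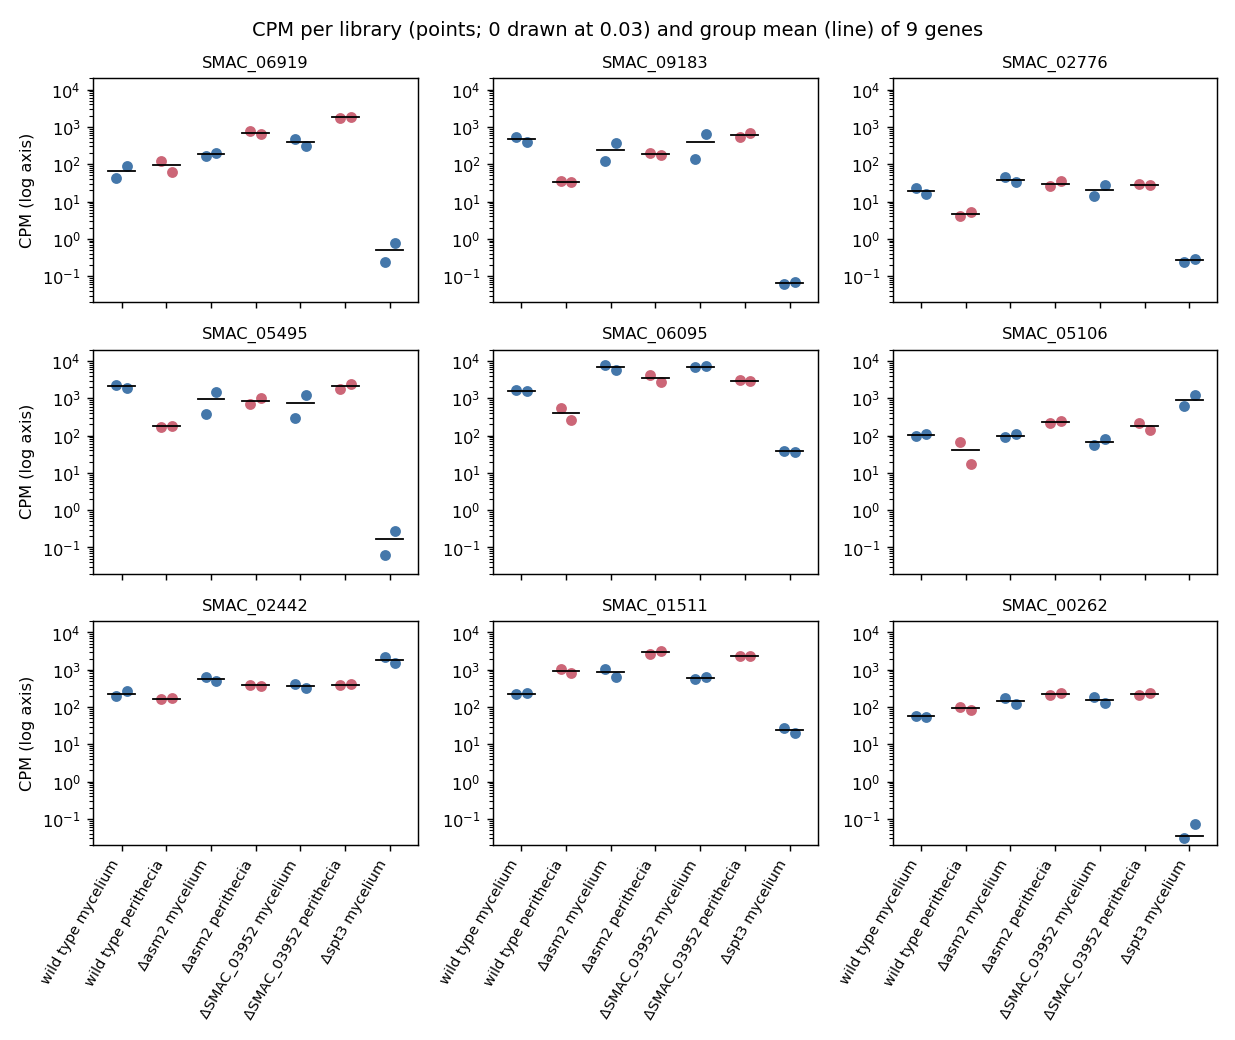
CPM in each library (points; blue, mycelium; red, perithecia; 0 drawn at 0.03) and group mean (line) on log axes for 9 genes, with 2 libraries per group. SMAC_09183, SMAC_02776 and SMAC_05495 are low in wild-type perithecia and under 1 CPM in Δspt3, SMAC_01511 is higher in perithecia than in mycelium of the 3 strains with both tissues, and SMAC_05106 and SMAC_02442 are highest in Δspt3.

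Most of the genes were low in Δspt3 mycelium. Against wild-type mycelium, 89 of the 116 genes were lower and 7 higher (edgeR's quasi-likelihood test, adjusted p under 0.05). Over all 9499 genes tested, 30.2% were lower and 29.1% higher. Among the 7038 genes that also reached 10 CPM in every mutant perithecia library, 28.0% were lower. The median log2 fold change was -4.25 for the 116 genes, against -0.01 for all genes tested and 0.07 for those 7038. A fall of at least 16-fold was fitted for 65 of the genes, against 7.06% of all. Leaving out 1 library of either group gave 88 to 90 lower and 4 to 8 higher genes.

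Many of the genes had next to no reads in Δspt3. Of the 116 genes, 42 were under 1 CPM in both Δspt3 libraries, while none was under 1 CPM in any of the other 12 libraries. By comparison, 150 of the 7038 genes at 10 CPM or more in the mutant perithecia were under 1 CPM in both, and this number contains the 42. No read at all was counted in either Δspt3 library for 8 of the genes, and for 22 of the 7038, which contain the 8. Another 10 of the 116 had 1 to 3 reads over both, a class not counted among the 7038. Genes with 0 counts are given below as bounds against a floor of 3 counts over the 2 Δspt3 libraries, and those with 1 to 3 counts as a ratio of pooled counts with its exact 95% interval. Both cover counting error only.

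SMAC_07966 stood at 63.0 and 38.7 CPM in wild-type mycelium and 9.97 and 9.43 CPM in wild-type perithecia. It had 0 counts in Δspt3, at least 527-fold lower than wild-type mycelium (edgeR adjusted p = 1.68e-05). SMAC_01013 was at least 487-fold lower (wild-type mycelium 54.3 and 40.5 CPM, edgeR adjusted p = 3.44e-06). For SMAC_09136 the bound was 478-fold (56.0 and 36.5 CPM in wild-type mycelium, edgeR adjusted p = 1.02e-04). SMAC_00058, at 39.5 and 32.6 CPM in wild-type mycelium, was at least 369-fold lower (edgeR adjusted p = 2.64e-05). All 4 genes were at 20 CPM or more in each of the 4 mutant perithecia libraries. SMAC_09183 held 20893 reads in wild-type mycelium, both libraries summed, and 2 in Δspt3, a ratio of 7249 with an interval of 2006 to 59860 (edgeR adjusted p = 1.56e-06). For SMAC_05495 the fitted log2 value was -13.37 (SE 1.09, edgeR adjusted p = 8.55e-07).

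Of the 12 genes that stood as high in wild-type perithecia as in mycelium, 9 were called lower in Δspt3. Of all 5460 genes of that kind, 26.1% were called lower. SMAC_00262 stood at 59.1 and 53.0 CPM in wild-type mycelium, 101 and 84.1 CPM in wild-type perithecia, 212 and 234 CPM in Δasm2 perithecia and 210 and 237 CPM in ΔSMAC_03952 perithecia. In Δspt3 mycelium 1 read was counted over both libraries, a ratio of 1713 with an interval of 307 to 67669 (edgeR adjusted p = 3.28e-08). SMAC_06919, at 0.244 and 0.784 CPM in Δspt3, was lower by a fitted log2 value of -6.87 (SE 0.61, edgeR adjusted p = 1.77e-06). For SMAC_01511 it was -3.05 (SE 0.35, edgeR adjusted p = 1.49e-05). SMAC_06095 is not of this kind, as its wild-type perithecia stood at 0.252 of the mycelial mean. Its fitted log2 value in Δspt3 was -5.21 (SE 0.48, edgeR adjusted p = 2.3e-06). The 83 genes under 0.5 of their mycelial level in wild-type perithecia included 72 called lower, beside 57.7% of all 1125 genes of that kind. Both measures share the wild-type mycelium libraries, and no test was made of these shares.

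**Figure D4:**
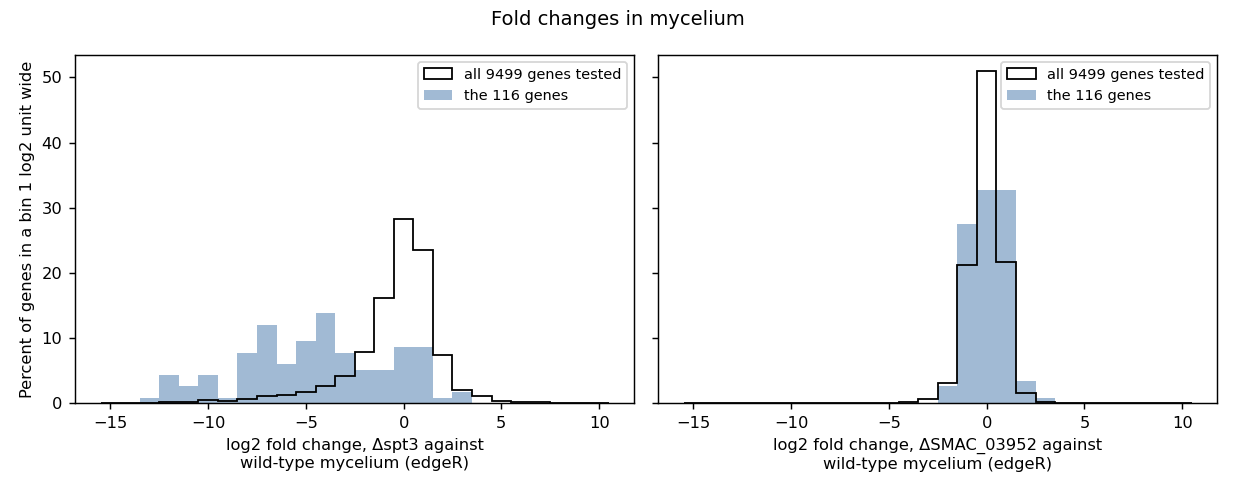
Percent of genes per bin of fitted log2 fold change against wild-type mycelium for Δspt3 (left) and ΔSMAC_03952 (right), with the 116 genes filled and all 9499 genes tested in outline. On the left the 116 genes spread to the lower side with a median of -4.25, and on the right their median is 0.16; fitted values of genes with 0 counts in Δspt3 depend on the prior count.

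A small part of the genes went the other way in Δspt3. SMAC_05106 stood at 94.8 and 113 CPM in wild-type mycelium and 617 and 1242 CPM in Δspt3 mycelium, higher by 3.31 on the log2 scale (SE 0.56, edgeR adjusted p = 3.05e-04). Its wild-type perithecia replicates were far apart, at 67.5 and 17.4 CPM, and its mutant perithecia ranged from 145 to 240 CPM. SMAC_02442 was at 192 and 264 CPM in wild-type and 2190 and 1544 CPM in Δspt3 mycelium, higher by 3.24 (SE 0.32, edgeR adjusted p = 4e-06). For these 2 genes both Δspt3 libraries were at least 2 times above every other library. The changes of SMAC_08699 (1.88), SMAC_02738 (1.38), SMAC_08232 (1.33), SMAC_07600 (0.81) and SMAC_00428 (0.66) were smaller on the log2 scale, with edgeR adjusted p of 6.26e-05, 0.00752, 0.00382, 0.0384 and 0.0438. The call of SMAC_07600 ended in 6 of 11 alternatives: other (RLE) scaling factors (edgeR adjusted p = 0.0507), no scaling (0.0633), length trends removed (0.0692), the compared libraries alone (0.0797), and without wild-type replicate 1 (0.319) or Δspt3 replicate 1 (0.304). That of SMAC_02738 ended without either of these libraries (0.0601 and 0.0589). With RLE factors or no scaling, 5 genes were higher.

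In mycelium of ΔSMAC_03952 few of the genes differed from the wild type by the test. Of the 116, 16 were higher and 0 lower (edgeR adjusted p under 0.05), against 4.13% higher and 6.64% lower of all genes tested. At an unadjusted p under 0.05, 29 were higher and 13 lower, against 16.1% and 17.7% of all. DESeq2 called 19 higher and 3 lower, against 8.12% and 11.6% of the genes it gave an adjusted p. The median log2 fold change was 0.16, against 0.03 for all genes tested. Both calls, higher in ΔSMAC_03952 and lower in Δspt3, were made for 11 of the 116 genes, against 0.621% of all. The number of calls in ΔSMAC_03952 moved when 1 library was left out, which leaves 1 library in its group. Without wild-type mycelium replicate 1 the fitted log2 fold changes of SMAC_06919 and SMAC_06095 were 2.18 and 2.25, against 2.63 and 2.22 with it. Without wild-type mycelium replicate 1, 1 gene was higher, SMAC_00180, and 0 lower. Without wild-type replicate 2 there were 4 higher and 1 lower. Without ΔSMAC_03952 replicate 1 the numbers were 20 and 1, and without its replicate 2 they were 10 and 20. Fold changes in this comparison fell with gene length across all genes (Spearman -0.35, across genes, which are not replicates); with length trends removed, 10 were higher and 2 lower.

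The 6 genes with the largest rise there were SMAC_06919, SMAC_06095, SMAC_08440, SMAC_00180, SMAC_00262 and SMAC_01113. SMAC_06919 was higher by 2.63 on the log2 scale (SE 0.45, edgeR adjusted p = 0.00619) and SMAC_06095 by 2.22 (SE 0.42, edgeR adjusted p = 0.00984). SMAC_08440 was at 53.7 and 71.2 CPM in wild-type mycelium, 163 and 355 CPM in ΔSMAC_03952 mycelium and 277 and 279 CPM in ΔSMAC_03952 perithecia. Both mutant groups lay above both wild-type tissues, and its log2 fold change in mycelium was 2.13 (SE 0.36, edgeR adjusted p = 0.00619). SMAC_00180 stood at 54.1 and 82.8 CPM in wild-type and 271 and 203 CPM in ΔSMAC_03952 mycelium (log2 fold change 1.84, SE 0.27, edgeR adjusted p = 0.00303). Its Δspt3 values, 67.7 and 57.1 CPM, overlapped the wild type. SMAC_00262 and SMAC_01113 had log2 fold changes of 1.55 and 1.46 (edgeR adjusted p = 0.00735 and 0.0384). Without wild-type replicate 1 the adjusted p of these genes other than SMAC_00180 lay between 0.0773 and 0.262.

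Replicates of mutant mycelium were far apart for many of these genes. In ΔSMAC_03952 mycelium 66 of the 116 differed at least 2-fold between the replicates, 56.9% against 15.5% of all genes tested, and their median was 24.3 CPM in replicate 1 and 60.6 CPM in replicate 2. In Δasm2 mycelium 49 did so, 42.2% against 10.6%, with medians of 34.0 and 57.7 CPM. Replicate 1 was at most 0.5 of replicate 2 in both strains for 44 genes, 37.9% against 3.48% of all. Of the 44, 40 were called lower in Δspt3, beside 89 of all 116. The share called lower among all tested genes of that kind was not counted, so nothing is read from the 40. The deviations of same-numbered Δasm2 and ΔSMAC_03952 mycelium libraries from their group means correlated at 0.72 across the 116 genes and 0.32 across all genes tested, which are not replicates. In Δspt3 mycelium 35 genes were 2-fold apart, 30.2% against 16.8%. In mutant perithecia the replicates were close: 0 genes in Δasm2 and 1 in ΔSMAC_03952 were 2-fold apart, which the rule's demand on the lowest library favours. Wild-type mycelium had 5 such genes, 4.31% against 4.64% of all.

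Δasm2 mycelium, whose mean the rule used as a ceiling, is described without a test. Relative to wild-type mycelium 27 genes stood at 2 times or more and 18 below 0.5, with a median ratio of 0.850. Replicates did not overlap for 43 genes that were higher, against 24.5% of all genes tested, and for 32 that were lower, against 30.3%. SMAC_06022 stood highest in the Δasm2 libraries. It stood at 123 and 155 CPM in Δasm2 mycelium and 177 and 188 CPM in Δasm2 perithecia, against 37.9 and 33.4 CPM in wild-type mycelium and 12.8 and 9.0 CPM in wild-type perithecia. ΔSMAC_03952 perithecia, at 34.5 and 26.9 CPM, were above wild-type perithecia and close to wild-type mycelium.

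Set directly against ΔSMAC_03952 mycelium, Δspt3 mycelium was lower for 94 of the 116 genes and higher for 8 (edgeR adjusted p under 0.05). The shares over all genes tested were 25.3% lower and 23.4% higher. The median log2 fold change was -4.49 against 0.02 for all genes, and 63 genes were at least 16-fold lower, against 6.27% of all. The lower genes with 0 counts in Δspt3 included SMAC_07568 and SMAC_01236, at 15.2 and 53.3 CPM and at 12.5 and 54.6 CPM in ΔSMAC_03952 mycelium (edgeR adjusted p = 1.01e-05 and 1.23e-05). SMAC_05106 and SMAC_02442 were higher in Δspt3 by log2 fold changes of 3.85 and 2.50 (edgeR adjusted p = 1.46e-04 and 3.07e-05). SMAC_03068 was higher by 1.37 (edgeR adjusted p = 0.00702), at 126 and 140 CPM in Δspt3 against 31.1 and 78.7 CPM in ΔSMAC_03952.

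Beside these levels stand those of 53 other genes, chosen after the data were seen, whose lower wild-type mycelium library reached 10 CPM and was at least 8 times the higher wild-type perithecia library. Their summed level was 48416 and 57091 CPM in wild-type mycelium and 2730 and 2622 CPM in wild-type perithecia. It was 6545 and 5476 CPM in Δasm2 perithecia and 2522 and 2300 CPM in ΔSMAC_03952 perithecia. The medians over the 53 genes were 21.5 and 22.0 CPM in wild-type, 40.5 and 39.9 CPM in Δasm2 and 29.6 and 28.4 CPM in ΔSMAC_03952 perithecia. In Δasm2 both measures thus lay above the wild type, and in ΔSMAC_03952 the sum lay below and the median above it. The median of the ratios of group means to wild-type perithecia was 1.87 in Δasm2 and 0.990 in ΔSMAC_03952. In mycelium of the mutants the sum was 37667 and 49415 CPM in Δasm2, 18804 and 25526 CPM in ΔSMAC_03952 and 23967 and 21930 CPM in Δspt3. Sums in ΔSMAC_03952 and Δspt3 mycelium lay below both wild-type libraries. The 53 genes were chosen as high in wild-type mycelium and low in wild-type perithecia. That choice favours lower values in mutant mycelium and higher ones in mutant perithecia, so nothing is read from these directions. Of the 53 genes, 4 were at least 2 times higher in every mutant perithecia library than in the wild type. Of these 4, 2 reached 10 CPM in all of those mutant libraries. The 116 genes were kept out of this list, and 2 of them would otherwise have been in it, so the count of 4 is lowered by the choice. None of the 53 was at 0 in any perithecia library. Whether the levels of the 53 genes bear on those of the 116 was not tested.

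The 116 gene models had a median of 1664 bases (quartiles 1078 and 2287), against 1853 bases for all genes tested and 2106 for the 7038 at 10 CPM in the mutant perithecia. Of the 116, 110 matched the RefSeq annotation ASM3387043v1, and 3 pairs were direct neighbours among its protein-coding genes. SMAC_07568 and SMAC_07569 are short models of 252 and 237 bases, and both had 0 counts in Δspt3. They stood at 3.20 and 1.28 CPM and at 8.08 and 5.88 CPM in wild-type perithecia, and at 12.3 to 20.5 CPM and 30.4 to 40.5 CPM in the mutant perithecia. SMAC_04703 and SMAC_04704 were lower in Δspt3 by log2 fold changes of -6.67 and -9.51 (edgeR adjusted p = 4.62e-05 and 4.07e-05; SMAC_04704 rests on 1 read in Δspt3). In the third pair, 1 gene was called. SMAC_07019 fell by 2.75 on the log2 scale in Δspt3 (SE 0.27, edgeR adjusted p = 4.17e-06), from 259 and 326 to 32.3 and 45.3 CPM. SMAC_07018 was at 427 and 455 CPM in the wild type and 527 and 338 CPM in Δspt3, which overlapped. The sources used here do not say whether these models overlap or whether counting used strand.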

How the data were processed

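The members and the lists used were chosen with earlier results of these data known. The authors deposited raw read counts per gene model with model lengths, per the file headers. Their table also holds a mean normalized signal, log2 fold changes and adjusted p-values from DESeq2, per the submitters' processing notes; these deposited columns entered no result. The sources used here name no aligner, counter, genome build or strand setting.

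The 145 second-transcript rows hold no counts. filterByExpr kept 9499 of 10014 gene models; the 515 left out held 0.00468% of counts. In R 4.3.3 with edgeR 4.0.16, counts were scaled by TMM and tested by the quasi-likelihood test in 1 model of 7 groups and 14 libraries (common BCV, the biological coefficient of variation, 0.237; 7 residual degrees of freedom). Benjamini-Hochberg adjustment ran over all genes tested, per comparison, with a threshold of 0.05. Levels are CPM on library totals. Shares are descriptions, with no set test.

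On simulated counts, 91% to 92% of 4-fold and 14% to 22% of 2-fold changes were recovered. Replicates differed beyond sampling noise (chi-square per gene 12.3 to 132). Named genes were the 12 largest ratios, the 8 highest means, the largest called changes (up to 6 per direction), those next to a threshold and neighbours, not all of them described; SMAC_06022, SMAC_09026, SMAC_00428 and genes of small counts were chosen after their values were seen. Also chosen after values were seen were the comparison with 7038 genes, the 16-fold limit, the ratio classes and the count of replicates 2-fold apart. Product and motif lists could not be used without names or sequences. Alternatives included DESeq2 1.42.0, other scaling, filters, blocks and left-out libraries.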

Additional observations from a re-analysis of the deposited data

Results flagged for a closer look

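For 11 genes the effects of the deletions in mycelium ran in opposite directions, higher in ΔSMAC_03952 and lower in Δspt3 than in the wild type (edgeR adjusted p under 0.05 in both). Over all genes tested 59 were called so, 0.621%. The genes were picked by these calls, so their direct difference follows from the choice and is no further evidence. The log2 fold changes of Δspt3 against ΔSMAC_03952 mycelium were -11.78 for SMAC_00262, which rests on 1 read in Δspt3, -9.49 for SMAC_06919, -7.43 for SMAC_06095, -6.48 for SMAC_07680 and -6.20 for SMAC_06910. They were -5.03 for SMAC_05473, -4.87 for SMAC_05936, -4.50 for SMAC_01511, -3.97 for SMAC_07358, -2.65 for SMAC_04400 and -2.58 for SMAC_09220. Without wild-type mycelium replicate 1 the call in ΔSMAC_03952 ended for all 11. Groups of 2 libraries are too small for a check of single outlying samples.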

How the results depend on the processing

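The count of members moved with the perithecia libraries: it was 116 as reported, 120 to 231 when 1 perithecia library was left out (231 without wild-type replicate 2, 178 without replicate 1, 168 without Δasm2 replicate 1), 43 at a ratio of 3, 296 at a ratio of 1.5 and 97 on TMM-scaled CPM, 92 of them among the 116. Genes called in Δspt3 against the wild type numbered 92 to 98, and in Δspt3 against ΔSMAC_03952 96 to 104, under every alternative with these members. With members chosen on TMM-scaled CPM, an alternative added after the data were seen, 76 of 97 were lower in Δspt3. The ΔSMAC_03952 count of 16 was 6 when the model held just the 4 libraries being compared and 1 to 30 with 1 library left out. With the replicate number as a block the counts were 22 (17 higher, 5 lower), 97 and 102. Over all genes, same-numbered libraries of the groups compared did not deviate together (correlations -0.02, -0.21 and -0.08), so the numbers were not taken as pairs. Across the 116 genes the correlations were -0.42 for ΔSMAC_03952 against the wild type, -0.06 for Δspt3 against the wild type and -0.04 for Δspt3 against ΔSMAC_03952. Library totals without scaling moved the median of all genes by -0.18 in Δspt3 against the wild type (the median of the 116 was then -4.44) and by -0.12 in Δspt3 against ΔSMAC_03952 (-4.62). Of 1100 values for single genes under alternatives, 1022 kept direction and call, 78 lost the call and 0 reversed. These were results of named genes already called as reported, many chosen for large changes, under refits that share libraries. Few reversals were therefore likely from the choice alone, and the numbers do not cover the other members. On the simulated counts, most changes of 2-fold were missed. There 100 genes were changed at each fold, far fewer than were called in Δspt3, so this share need not hold in Δspt3. SMAC_00428 was called in Δspt3 at a log2 fold change of 0.66.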

Other observations

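Another 9 genes met the 10 CPM and the ratio of 2 in perithecia and were left out because of the condition on Δasm2 mycelium. Their ratio of Δasm2 perithecia to Δasm2 mycelium ran from 0.0328 for SMAC_09305 to 0.483 for SMAC_05246.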
